A study of Rattus norvegicus with 13 samples.

Results

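The solute carriers of rat islets were taken as every probe whose gene symbol begins with Slc and a digit, leaving out Slc2a2, Slc30a8, Slc6a15, Slc7a2 and Slc16a1. The array held 355 such probes, and 7 fell to these exceptions. Of the other 348 probes, for 269 genes, 264 probes for 215 genes in 46 families had at least 2 values in every group and are the members described here, among 17965 probes of the series that met it too. The remaining 84 probes fell short of it. Members were chosen by name and by their number of values. The rule, with its exceptions, was set with earlier results of these data known.

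Solute carriers are membrane proteins that move small molecules across the plasma membrane, the mitochondrial inner membrane and the membranes of vesicles and lysosomes, by facilitated diffusion, by exchange, or by coupling to sodium, protons or chloride. In islets they bring in glucose and amino acids, load zinc and amines into secretory granules, pass metabolites between cytosol and mitochondria, and set cell pH and calcium. Nkx6.1 and Pdx1 are homeodomain transcription factors of the pancreas and of mature beta cells, and both bind DNA sites with a TAAT core.

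Islets came from male Sprague-Dawley rats of about 250 g. Pools of about 200 islets were exposed for 18 h to an adenovirus and cultured for another 60 h in medium with 8 mM glucose and 10% fetal calf serum. The virus carried hamster Nkx6.1 (AdCMV-Nkx6.1, 5 arrays), mouse Pdx1 (AdCMV-Pdx1, 3 arrays) or beta-galactosidase as the control (AdCMV-bGAL, 5 arrays), and each replicate was an islet isolation of its own. The viral promoter (CMV) is not specific to a cell type, so the factor could be made in any infected islet cell. Islet RNA (500 ng, amplified, Cy5) shared each array with a commercial pool of rat RNA (Cy3). A value is therefore the log2 ratio of islets over that pool, and 0 means equal signal in both. Dyes were not swapped, so a dye effect of a probe stays in its level but cancels in the difference between groups. These are whole islets, in which fewer cells of a type and less RNA per cell cannot be told apart.

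The labelled tissue showed its defining markers. Array means over 5 beta-cell probes (Ins1, Ins2, Iapp, Nkx6-1 and Slc2a2) lay at 4.39 to 6.38 under Nkx6.1, 4.50 to 5.14 under Pdx1 and 4.29 to 4.99 under bGAL. Of the liver genes tested, the lower probe of Alb averaged -4.97, -5.08 and -4.93 in the same order. Ttr averaged -2.56, -2.41 and -1.73, but Fgb lay above the pool, at 2.10, 1.16 and 2.28. The rat Nkx6-1 probe averaged 3.19 under Nkx6.1 and 3.72 under bGAL, which does not show whether hamster Nkx6.1 was made. Arrays differed in how many probes were left empty: over 30% on Nkx6.1 1 and on bGAL 1, 2, 3 and 5, and under 30% on the other 8, so that bGAL 4 is the only control array of the second set. The sets also differed in spread. Over all probes with a value on every array, the SD of the log2 ratios was 1.78 to 1.90 in the first set. In the second it was 1.43 to 1.50, apart from 2.14 on Nkx6.1 2. The part of this spread in the differences between groups was not tested. Of the members, 136 had a value on all 13 arrays. Nkx6.1 replicate 2 stood apart, with correlations over members of 0.506 to 0.672 with the other arrays, against 0.801 to 0.969 among those 12. Many of the results that rest on this replicate or on the array set are given with and without them.

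Against the reference pool, control islets carried solute carrier transcripts at ratios spread widely on both sides of 0. Under bGAL the member mean was above 1 for 48 of 264 probes (18.2%) and below -1 for 49 (18.6%), against 16.8% and 15.5% of all probes tested. The member median was 0.09 under Nkx6.1, 0.06 under Pdx1 and 0.02 under bGAL. By role, medians under bGAL ran between -0.24 for nucleoside and nucleotide sugar carriers (24 probes) and 0.38 for the 7 probes of the lysosomal PQ-loop family. Ion and pH carriers had 14 of 39 probes above 1, and no test was made between roles. Mitochondrial carriers had the narrowest range, with bGAL means of -1.71 to 1.64 over 32 probes.

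**Figure D1:**
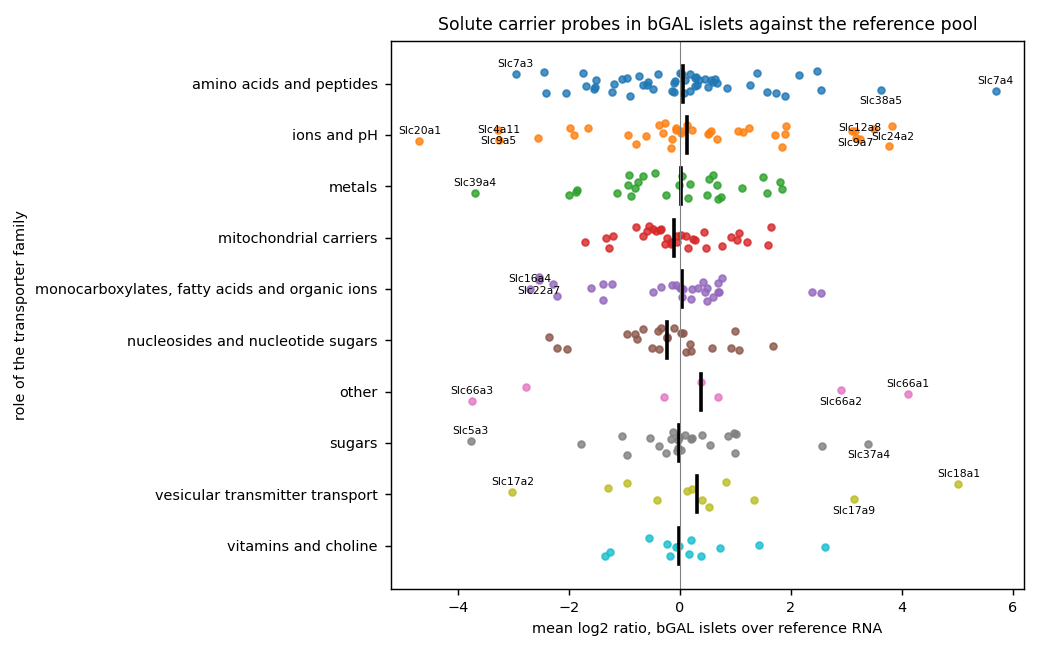
Mean log2 ratio of islets over reference RNA on the bGAL arrays (x axis) for each of the 264 solute carrier probes, 1 point per probe, grouped by the role of the transporter family (y axis); black bars are role medians and the named points are the 10 highest and 10 lowest genes. Every role has probes on both sides of 0, and role medians lie between -0.24 and 0.38.

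Among amino acid carriers, Slc38a5, a glutamine transporter of the plasma membrane, had 3.29, 5.39, 4.10, 3.44 and 4.24 on the 5 Nkx6.1 arrays, 3.95, 3.53 and 3.55 on the 3 Pdx1 arrays and 3.78, 3.73, 3.32, 3.70 and 3.61 on the 5 bGAL arrays. It was far above the pool on all 13 arrays, and the groups overlap. The highest of 3 probes for Slc66a1, which exports cationic amino acids from lysosomes, likewise lay at 3.98 to 7.01 under Nkx6.1, 3.90 to 4.15 under Pdx1 and 3.90 to 4.44 under bGAL. The lowest Slc66a1 probe averaged -0.28 under bGAL, so this level depends on the probe. Slc7a3, a plasma membrane carrier of arginine and lysine, sat at the other end, with means of -2.82 ± 0.529, -2.90 ± 0.0710 and -2.97 ± 0.229 in that order (SD, n = 5, 3 and 5).

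Slc37a4 moves glucose 6-phosphate into the endoplasmic reticulum, where islets express the glucose-6-phosphatase G6pc2. Its higher probe read 3.47 ± 0.524 under Nkx6.1, 2.81 ± 0.188 under Pdx1 and 3.40 ± 0.214 under bGAL (SD, n = 5, 3 and 5). Slc20a1, a sodium-phosphate cotransporter of most cells, was the lowest member, with -3.68, -4.33, -4.29, -4.14 and -4.14 under Nkx6.1, -4.35, -4.23 and -4.14 under Pdx1 and -5.16, -4.60, -4.57, -4.32 and -4.85 under bGAL. Its second probe averaged -2.56 under bGAL, so this level depends on the probe. Slc5a3, the sodium-coupled importer of myo-inositol (-3.78 under bGAL), the zinc importer Slc39a4 (-3.70), Slc66a3 of the PQ-loop family (-3.76), the sodium/proton exchanger Slc9a5 (-3.28) and Slc4a11 of the bicarbonate transporter family (-3.26) were also far below the pool. So were Slc17a2 (-3.02), Slc16a4 (-2.71) and the liver and kidney organic anion carrier Slc22a7 (-2.55).

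The 10 highest and 10 lowest genes were taken over probes with a value on at least 4 bGAL arrays, and for 7 of the 10 highest bGAL 4 was the lowest control array. Slc7a4, a member of the cationic amino acid carrier family, read 9.66, 5.06, 7.31, 2.95 and 3.47 on bGAL 1 to 5. Its other probe averaged 1.57 under bGAL. Slc18a1, the vesicular amine transporter VMAT1 of neuroendocrine granules, read 4.00, 7.38, 7.40, 2.28 and 4.03, again lowest on bGAL 4. The same array was lowest for the higher probe of the sodium/calcium exchanger Slc24a2 (1.67, against 3.65 to 5.32 on the other 4), for Slc17a9, which loads ATP into vesicles (1.69, against 3.07 to 4.39), and for the Golgi sodium/proton exchanger Slc9a7 (1.64, against 3.44 to 4.07 on 3). Slc12a8 of the cation-chloride cotransporter family (3.24) and Slc66a2 (2.91, and 0.68 on its other probe) were lowest on bGAL 4 too, while Slc38a5, Slc37a4 and Slc66a1 were not.

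Setting Nkx6.1 against bGAL asks which transporters the factor changes in these islets, and 1 probe passed the limma test. Of 264 members 1 (0.379%) had an adjusted p under 0.05, where 115 of all 17965 probes (0.64%) did, with the adjustment made over all probes tested. It was lower under Nkx6.1, as were 0.228% of all probes, and 0 members were higher, against 0.412%. At an unadjusted p under 0.05 there were 45 members (17%), against 14.4% of all probes. Of these 23 were higher (8.71%, against 5.24%) and 22 lower (8.33%, against 9.2%). Group values did not overlap for 21 members (7.95%, against 7.73%), 11 of them higher (against 3.25%) and 10 lower (against 4.48%). The member median was 0.01 and the median of all probes -0.08, and 32 members (12.1%) differed by at least 1 on the log2 scale, against 12.05%. These shares lie near those of the whole array, with the widest gap in the members higher at an unadjusted p.

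The probe that passed belongs to Slc6a2, the noradrenaline transporter, which returns the transmitter to sympathetic nerve endings and to some endocrine cells. Its log2 ratios were -0.01, 0.48, 0.14, -0.06 and 0.26 on the 5 Nkx6.1 arrays, 0.94, 1.23 and 2.00 on the 3 Pdx1 arrays and 2.00, 2.86, 3.13 and 2.17 on the 4 bGAL arrays with a value (bGAL 1, 2, 4 and 5). Every Nkx6.1 value lay near 0, every bGAL value at 2.00 or above, and the groups did not overlap. The mean was 0.16 ± 0.219 under Nkx6.1 and 2.54 ± 0.543 under bGAL (SD, n = 5 and 4). Slc6a2 thus fell by 2.38 on the log2 scale, 5.20-fold (SE 0.294, 95% interval -3.02 to -1.74, limma adjusted p = 0.00406).

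The fall of Slc6a2 also passed with array sets blocked (-2.65, adjusted p = 0.0165) and when Nkx6.1 2 was left out (-2.46, adjusted p = 0.00288). Within the arrays with few empty probes, which hold 1 bGAL array, the difference was -2.93, and within those with many, which hold 1 Nkx6.1 array, -2.36. The call was lost there and under quantile normalization (-2.30, adjusted p = 0.0843). A second Slc6a2 probe did not share the fall. It read 1.05, -0.34, -0.28 and -0.03 on 4 Nkx6.1 arrays, 0.21, 0.05 and -0.17 under Pdx1 and -0.27 and -0.05 on bGAL 4 and 5, with bGAL 2 within 0.01 of 0, and differed by 0.20 between Nkx6.1 and bGAL (95% interval -0.56 to 0.97). The bGAL values of this second probe already lay near 0, which equal or absent signal in both channels would also give. Whether it could show a fall is therefore not known. The Nkx6.1 values of the first probe lay near 0 too, and the signals were not used here. Where both probes lie in the transcript is not stated. Of the 3 probes for delta-cell markers, Hhex and Rbp4 also fell under Nkx6.1 (by 1.65 and 2.84), Sst differed by -1.09 without passing, and the array means of the 3 ran 0.29 to 1.78 under Nkx6.1, 2.41 to 3.14 under Pdx1 and 2.34 to 2.64 under bGAL. The part of this change in the Slc6a2 result was not tested.

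**Figure D2:**
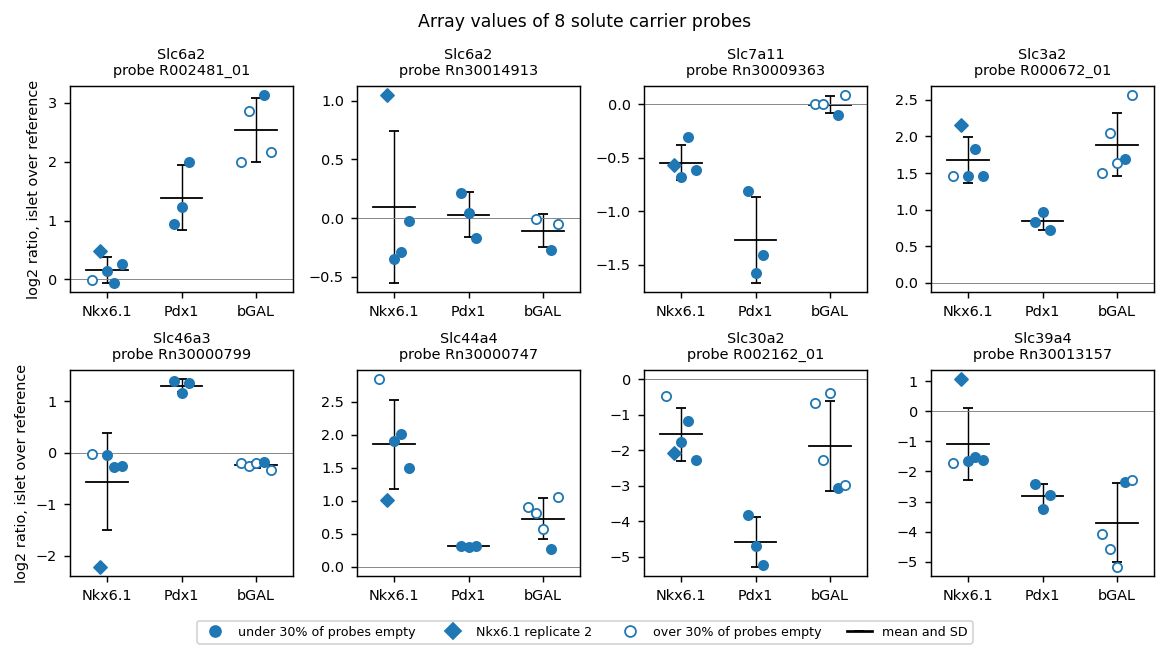
Log2 ratio of islets over reference (y axis) on each array for 8 solute carrier probes in Nkx6.1, Pdx1 and bGAL islets (x axis); filled points are arrays with under 30% of probes empty, open points those with over 30%, diamonds are Nkx6.1 replicate 2, and lines give mean and SD. The first Slc6a2 probe lies between -0.06 and 0.48 on the Nkx6.1 arrays and between 2.00 and 3.13 on the bGAL arrays, while the second stays near 0 in all groups apart from 1.05 on Nkx6.1 2.

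No other amino acid carrier passed under Nkx6.1. Slc38a1, an importer of glutamine and other neutral amino acids, had -1.77, -0.97, -1.77, -1.37 and -1.74 on the Nkx6.1 arrays, -2.20, -2.67 and -2.55 on the Pdx1 arrays and -3.25, -2.61, -2.45, -1.83 and -1.92 on the bGAL arrays. All Nkx6.1 values lay above all bGAL values, yet the difference of 0.89 (SE 0.282) did not pass (limma adjusted p = 0.186), and with array sets blocked it was 0.58 and under quantile normalization 0.38. Its second probe differed by 1.19 in the same direction, 0.53 with the block. Over the 52 amino acid and peptide probes the median was 0.11, with 4 higher and 5 lower at an unadjusted p under 0.05, where 5.24% and 9.2% of all probes were.

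Among metal carriers Slc39a4, the importer ZIP4 that takes zinc into cells, had the largest difference upward of all members. It read -1.71, 1.07, -1.64, -1.51 and -1.61 under Nkx6.1 and -4.08, -4.59, -5.17, -2.36 and -2.30 under bGAL. The groups did not overlap, but bGAL 4 and 5 lay nearest to the Nkx6.1 arrays and the value on Nkx6.1 2 far above the other 4. The difference was 2.62 (SE 0.645, limma adjusted p = 0.0930), 2.08 without that replicate and 1.88 with array sets blocked. Leaving out bGAL 4 brought it past the threshold (2.96, adjusted p = 0.0259). All control arrays left then have many empty probes, and of the Nkx6.1 arrays only Nkx6.1 1 has. The zinc exporter family Slc30 (9 probes) had a median difference of -0.09, and the importer family Slc39 (9 probes, this one included) of -0.22.

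Slc44a4, a choline transporter-like protein that carries thiamine pyrophosphate, read 2.84, 1.02, 1.91, 2.01 and 1.49 under Nkx6.1, 0.32, 0.31 and 0.31 under Pdx1 and 0.91, 0.82, 0.58, 0.27 and 1.06 under bGAL. Nkx6.1 2 was the lowest of its group and overlapped the bGAL values, while the other 4 Nkx6.1 arrays were above all arrays of both other groups. The difference from bGAL was 1.13 (SE 0.296, limma adjusted p = 0.115). Without Nkx6.1 2 it was 1.34 and passed (adjusted p = 0.0278). It did not pass with array sets blocked (1.67, adjusted p = 0.0554) or under quantile normalization (1.54, adjusted p = 0.0693). With the block and without Nkx6.1 2, an alternative chosen after seeing the data, it was 1.77 (adjusted p = 0.0039). It passed in 2 of 26 alternatives, both without that array. The vitamin C importer Slc23a2 differed by 1.02 (0.25 within the few-empty arrays) and Slc23a4, a nucleobase carrier of the same family in rat, by -0.98, neither past the threshold. A second Slc23a4 probe differed by 0.18, in the other direction.

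Mitochondrial carriers had a median of -0.22 over 32 probes, and 0.04 with array sets blocked. Slc25a10, which exchanges dicarboxylates such as malate for phosphate, read 0.64, 2.58, 0.60, 0.53 and 1.11 under Nkx6.1 and -0.62, -0.15, -0.50, -0.25 and 0.36 under bGAL. All 5 Nkx6.1 values lay above all bGAL values, with the highest on Nkx6.1 2. The difference was 1.32 (SE 0.374, limma adjusted p = 0.140), 0.95 without Nkx6.1 2 and 1.16 with the block. Slc25a37, mitoferrin, which brings iron into mitochondria, differed by 0.92 (bGAL n = 3) and by 0.95 with the block.

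Several large differences downward, in vesicle, ion and sulphate carriers, shrank when array sets were blocked. Slc18a1 read 1.62, 1.91, 2.21 and 1.75 on 4 Nkx6.1 arrays and 4.00, 7.38, 7.40, 2.28 and 4.03 on the bGAL arrays, a difference of -3.15 (SE 0.901, limma adjusted p = 0.153). The Nkx6.1 values lay just below that of bGAL 4, and with array sets blocked the difference was -0.41. The lower Slc24a2 probe differed by -2.10 and by -0.03 with the block (the higher one by -0.75), Slc9a7 by -2.08 and -0.56, and Slc13a1, the sodium-sulphate cotransporter, by -1.57 and -0.19. None of these 3 probes nor that of Slc18a1 had a value on Nkx6.1 1, so in the blocked value bGAL 4 is the lone control in their array set. Without bGAL 4 all 4 were larger and passed, Slc18a1 at -3.83 (adjusted p = 0.018), Slc24a2 at -2.61 (0.00832), Slc9a7 at -2.59 (0.00687) and Slc13a1 at -2.04 (0.0229). Group and array set then coincide for these 4 probes and cannot be told apart. Slc16a12, a creatine carrier, differed by -1.13 (-0.56 with the block) and the lower Slc37a4 probe by -0.99 (-0.77), while the other Slc37a4 probe differed by 0.07. Upward, Slc16a13 of the monocarboxylate carriers differed by 0.92 (0.54) and Slc20a1 by 0.59 (0.61, and 0.04 on its second probe without the block). Within the few-empty arrays these were 0.09 and 0.10, and Slc20a1 was 0.04 under quantile normalization. The adjusted p of these probes in limma ran 0.126 to 0.213.

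**Figure D3:**
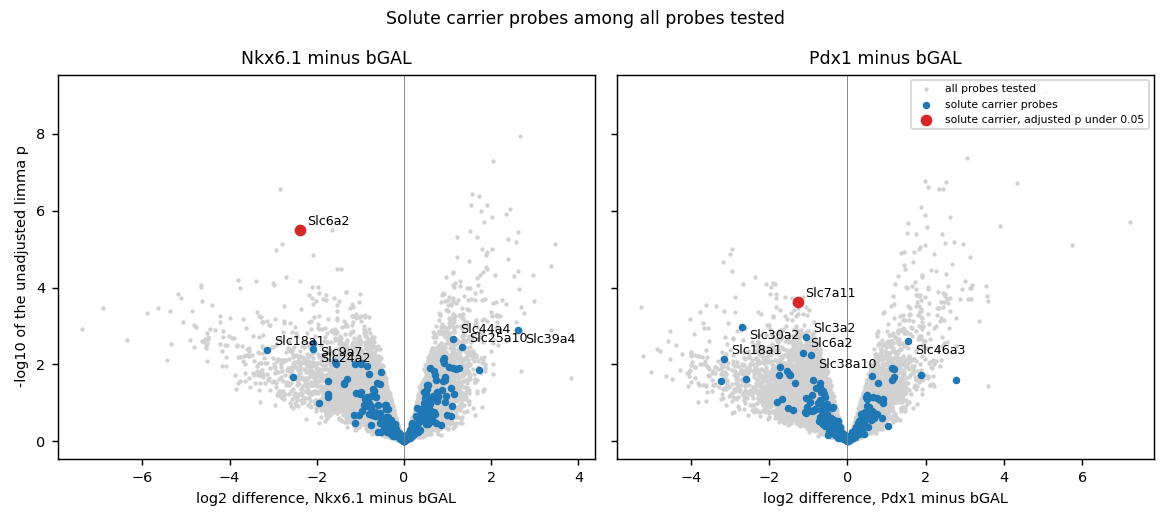
Log2 difference (x axis) against -log10 of the unadjusted limma p (y axis) for all 17965 probes tested (grey) and the 264 solute carrier probes (blue, red where the adjusted p was under 0.05), Nkx6.1 minus bGAL on the left and Pdx1 minus bGAL on the right; the 7 members with the smallest p are named. Slc6a2 on the left and Slc7a11 on the right are the red points, and the other members lie within the cloud of all probes.

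Pdx1 against bGAL asks which transporters Pdx1 changes, and 1 member passed, downward. This was 0.379% of members, against 98 of 17965 probes (0.546%). Lower were 0.106% of all probes, and higher 0.44%, with 0 members higher. At an unadjusted p under 0.05 there were 28 members (10.6%), against 11.9% of all probes. Of these 9 were higher (3.41%, against 4.09%) and 19 lower (7.2%, against 7.78%). Group values did not overlap for 44 members (16.7%, against 19.5%), 19 of them higher (against 8.02%) and 25 lower (against 11.5%). The member median was -0.09 and that of all probes -0.10. Both comparisons share the same bGAL arrays.

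The probe that passed under Pdx1, that of Slc7a11, also had the smallest p of the members. Slc7a11 encodes xCT, the light chain of the antiporter that takes up cystine in exchange for glutamate and so feeds glutathione synthesis, and Slc3a2 encodes the heavy chain (4F2hc) that carries xCT and several other light chains to the plasma membrane. The 250 bases before the RefSeq start of these genes are shown, since both read lower under Pdx1 and Pdx1 binds TAAT cores. They are given 5′ to 3′ on the strand of the gene, GRCr8, with TAAT or its reverse ATTA in capitals: Slc7a11 at chr2:136668265-136668514 (minus strand) and the windows of Slc3a2 at chr1:215048065-215048314 and chr1:215039671-215039920 (minus strand).
Slc7a11: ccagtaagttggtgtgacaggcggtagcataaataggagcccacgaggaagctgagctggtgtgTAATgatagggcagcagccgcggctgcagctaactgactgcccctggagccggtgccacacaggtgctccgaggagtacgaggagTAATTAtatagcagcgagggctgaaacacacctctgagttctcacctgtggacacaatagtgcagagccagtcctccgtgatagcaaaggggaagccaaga
Slc3a2 window 1: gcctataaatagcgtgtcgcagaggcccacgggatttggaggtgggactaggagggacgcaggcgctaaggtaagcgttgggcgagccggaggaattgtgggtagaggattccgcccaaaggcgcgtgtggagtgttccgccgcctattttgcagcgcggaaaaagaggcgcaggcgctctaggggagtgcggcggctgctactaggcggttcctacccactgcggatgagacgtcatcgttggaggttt
Slc3a2 window 2: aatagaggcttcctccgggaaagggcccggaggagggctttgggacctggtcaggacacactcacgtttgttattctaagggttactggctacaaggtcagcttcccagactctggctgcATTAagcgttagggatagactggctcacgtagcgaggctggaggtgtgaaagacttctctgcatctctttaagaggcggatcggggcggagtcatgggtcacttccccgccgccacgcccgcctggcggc

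Counted on both strands with overlap allowed, the Slc7a11 window held TAAT 3 times, with 1 match apart and the others overlapping in 1 TAATTA. The first Slc3a2 window held TAAT 0 times and the second once. TAAT stood in 57.0% of 33469 rat promoter windows of this length and in 79 of 178 windows of the member genes (44.4%), and TAATTA in 4.86% and in 8 of 178 (4.49%). The letters TGATGNAA, an amino acid response element read by Atf4 in front of both genes in mouse or human cells, stood in none of these 3 windows and in 3.40% of all. A match is a description of letters and not a site.

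Slc7a11 read -0.82, -1.58 and -1.41 on the 3 Pdx1 arrays, -0.57, -0.69, -0.31 and -0.62 on 4 Nkx6.1 arrays, and on the bGAL arrays -0.10 and 0.08 (bGAL 4 and 5) and within 0.01 of 0 (bGAL 1 and 2). Every Pdx1 value lay below every value of the other groups. The mean was -1.27 ± 0.401 under Pdx1 and -0.01 ± 0.0763 under bGAL (SD, n = 3 and 4). Slc7a11 thus fell by 1.26, 2.40-fold (SE 0.239, 95% interval -1.79 to -0.74, limma adjusted p = 0.0465). Values at 0 are also what equal or absent signal in both channels would give, and the signals were not used here. With such values treated as empty the call was lost, as it was with array sets blocked (-1.17, adjusted p = 0.803), where bGAL 4 alone stands for the controls. With 1 array left out it held without bGAL 4, Nkx6.1 1 or Nkx6.1 2 (adjusted p = 0.021 for the last) and was lost without any 1 of the other 10. Without bGAL 4 the control arrays all have many empty probes and the Pdx1 arrays few. The call was also lost with a variance trend, and passed in 8 of 24 alternatives in all.

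Slc3a2 read 0.83, 0.96 and 0.72 under Pdx1, 1.46, 2.16, 1.46, 1.83 and 1.46 under Nkx6.1 and 1.50, 2.05, 1.64, 1.69 and 2.57 under bGAL. All 3 Pdx1 values were below all 10 others. The difference from bGAL was -1.05 (2.07-fold, SE 0.272) and did not pass (limma adjusted p = 0.145), but it did without Nkx6.1 2 (-1.05, adjusted p = 0.0463), an array of neither group compared. With array sets blocked it was -1.06, within the arrays with few empty probes -0.85 and under quantile normalization -0.55. Other light chains that pair with Slc3a2 did not pass. Slc7a5, the exchanger of leucine and other large neutral amino acids, differed by -0.04 (95% interval -0.68 to 0.59) and Slc7a8, a relative of it, by 0.51 (-0.16 to 1.18). Slc7a9, the kidney cystine carrier that pairs with another heavy chain, differed by -1.55 without passing (adjusted p = 0.282), and Slc38a10 by -0.94, where its second probe differed by 0.21. Slc6a2 under Pdx1 differed from bGAL by -1.15 (SE 0.335, adjusted p = 0.199), where its second probe differed by 0.14.

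Slc46a3, a lysosomal carrier of the folate transporter family, was the member with the smallest p upward. It read 1.40, 1.16 and 1.36 under Pdx1, -0.02, -2.21, -0.03, -0.27 and -0.24 under Nkx6.1 and -0.20, -0.26, -0.19, -0.18 and -0.33 under bGAL. The Pdx1 values stood above all others, the bGAL values lay close together, and the low value belongs to Nkx6.1 2. The difference from bGAL was 1.54 (2.90-fold, SE 0.413, limma adjusted p = 0.160). Without Nkx6.1 2, whose value widens the shared variance, it came to 1.54, past the threshold (adjusted p = 3.45e-04). It also passed under quantile normalization (1.94, adjusted p = 0.0208) and with arrays scaled to 1 spread (1.74, adjusted p = 0.0107). With array sets blocked it was 1.78 and did not pass (adjusted p = 0.705). With that block and without Nkx6.1 2, an alternative chosen after seeing the data, it was 1.58 (adjusted p = 0.00492). Its promoter window (chr12:12176584-12176833, plus strand, GRCr8) is shown with that of Slc44a4 (chr20:3923855-3924104, minus strand), 1 of 3 members that passed upward under Nkx6.1 once Nkx6.1 2 was left out. The others were the copper importer Slc31a1 and Slc9a5, named here after their values were seen. TAAT or ATTA is again in capitals, with 1 match in Slc46a3 and 3 in Slc44a4, which overlap and hold TAATTA.
Slc46a3: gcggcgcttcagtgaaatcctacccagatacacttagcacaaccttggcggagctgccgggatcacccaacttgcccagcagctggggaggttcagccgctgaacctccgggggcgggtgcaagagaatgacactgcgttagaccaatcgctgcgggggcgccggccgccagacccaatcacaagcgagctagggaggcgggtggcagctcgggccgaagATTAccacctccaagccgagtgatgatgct
Slc44a4: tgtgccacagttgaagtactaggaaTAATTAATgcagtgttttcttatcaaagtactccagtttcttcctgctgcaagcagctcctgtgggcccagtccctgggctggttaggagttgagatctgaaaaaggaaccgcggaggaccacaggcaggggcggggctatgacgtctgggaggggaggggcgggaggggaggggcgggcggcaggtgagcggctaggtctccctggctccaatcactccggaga

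Slc30a2, the exporter ZnT2 that moves zinc out of the cytosol, read -3.83, -4.69 and -5.22 under Pdx1, -0.47, -2.09, -1.76, -1.18 and -2.28 under Nkx6.1 and -0.67, -2.28, -0.39, -3.08 and -2.97 under bGAL. The Pdx1 values lay below all others, with bGAL 4 and 5 the nearest. The difference of -2.70 (SE 0.646) did not pass (limma adjusted p = 0.110) and was -1.56 with array sets blocked. It passed without bGAL 4 (-3.0, adjusted p = 0.0282) and with arrays scaled to 1 spread (-3.62, adjusted p = 0.0253). Without bGAL 4 all controls have many empty probes and all Pdx1 arrays few, so group and array set cannot be told apart. The 2 promoter windows of Slc30a2, not printed here, held TAAT or ATTA 0 times. Over the 28 metal carrier probes the median was -0.13, with 0 higher and 2 lower at an unadjusted p under 0.05, where 4.09% and 7.78% of all probes were.

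Slc25a4, the ADP/ATP exchanger of the mitochondrial inner membrane, read 0.63, 0.59 and 0.54 under Pdx1, 0.59, -1.24, -0.06, -0.79 and -0.38 under Nkx6.1 and -0.16, -0.26, -0.17, -0.73 and -1.46 under bGAL. It was above every bGAL array on all 3 Pdx1 arrays, by 1.14 (SE 0.396, limma adjusted p = 0.271), and by 1.71 with the block. Its relative Slc25a5 differed by -0.36 and mitoferrin Slc25a37 by 0.77. None of these passed.

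Further differences upward under Pdx1 without a call were in Slc5a3 (1.88, 1.28 with the block), the fatty acid carrier and acyl-CoA synthetase family member Slc27a3 (1.19, 0.62), the sodium-bicarbonate cotransporter Slc4a7 (1.18, 0.53), the iodide importer Slc5a5 (0.63, 0.43) and Slc66a3 (2.76, 3.47). Within the few-empty arrays Slc5a3 came to 0.84, Slc27a3 to 0.52, Slc4a7 to 0.04 and Slc66a3 to 1.44. Slc66a3 read -2.80, -0.14 and -0.04 on the Pdx1 arrays and -3.83, -4.90, -3.04, -2.44 and -4.59 on the bGAL arrays, so its Pdx1 values were split. Downward, Slc18a1 (-3.15) and Slc17a9 (-1.74) came to -0.41 and -0.16 with the block. The adjusted p of these 7 ran 0.227 to 0.337.

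The array set moved many of these differences. Among the 22 members lower under Nkx6.1 at an unadjusted p under 0.05, the median difference was -1.23, and -0.50 with the block. For the 19 lower under Pdx1 these were -1.33 and -0.51. Upward the medians were 0.92 and 0.62 over 23 members under Nkx6.1, and 1.18 and 0.80 over 9 under Pdx1. In 14 of the 22 and 13 of the 19, bGAL 4 was the bGAL array nearest to the factor, and over all 264 members it was the lowest bGAL array for 25.8%. With the block 1 member passed under Nkx6.1 (0.379%, against 0.0724% of all probes) and 0 under Pdx1 (against 0.117%). What separates the sets was not tested, since no label names it.

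**Figure D4:**
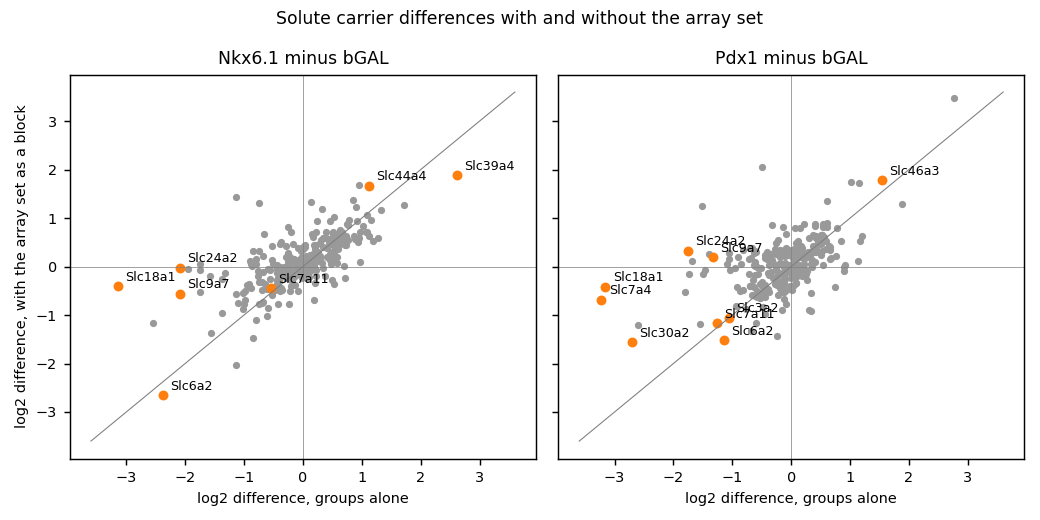
Log2 difference of each of the 264 solute carrier probes with groups alone (x axis) and with array sets blocked (y axis), Nkx6.1 minus bGAL on the left and Pdx1 minus bGAL on the right; the diagonal marks equal values, and orange points are named members with an unadjusted p under 0.05. Slc6a2 keeps its difference under Nkx6.1 (-2.38 and -2.65), while Slc18a1 lies close to 0 with the block in both comparisons.

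Setting the factors against each other, Nkx6.1 against Pdx1, 0 of 264 members passed in limma, where 39 of 17965 probes (0.217%) did, 0.0223% higher and 0.195% lower under Nkx6.1. At an unadjusted p under 0.05 there were 15 members (5.68%), against 6.85% of all probes. Of these 9 were higher (3.41%, against 3.59%) and 6 lower (2.27%, against 3.26%). With array sets blocked 0 members passed as well, against 0.245%. Group values did not overlap for 29 members (11%, against 12.1%), 22 of them higher (against 6.1%) and 7 lower (against 5.98%). The member median was 0.08, beside 0.02 for all probes. Here 4 of 5 Nkx6.1 arrays and all 3 Pdx1 arrays belong to the same array set.

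Higher under Nkx6.1 than under Pdx1, though without passing, were Slc30a2 (3.03, SE 0.646, limma adjusted p = 0.109), Slc44a4 (1.54, SE 0.342), Slc38a1 (0.95, and 0.27 on its second probe), Slc3a2 (0.83) and Slc7a11 (0.72). Their array values are given above, and for each of the 5 no Nkx6.1 value lay below any Pdx1 value. Lower were Slc46a3 (-1.86, SE 0.413, adjusted p = 0.133), Slc6a2 (-1.23, and 0.07 on its second probe), Slc25a4 (-0.97) and Slc15a2, an importer of di- and tripeptides. Slc15a2 read -0.08, 0.48, 0.37 and -0.09 on 4 Nkx6.1 arrays, 1.91, 3.45 and 1.69 on the Pdx1 arrays and 1.94 and 1.54 on the 2 bGAL arrays with a value (bGAL 2 and 4). The Nkx6.1 arrays stood apart below both other groups, by -2.18 from Pdx1 (SE 0.427, adjusted p = 0.134). Slc4a1ap, an adaptor protein that carries the symbol of a bicarbonate exchanger and is no transporter, differed by -0.64. Without Nkx6.1 2, Slc44a4 (1.75, adjusted p = 0.0216) and Slc46a3 (-1.45, adjusted p = 5.35e-04) passed.

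A list of transporters known in islets, taken whatever their values, gave 37 genes with 46 probes. Of these 0 passed under Nkx6.1, 1 (Slc7a11) under Pdx1 and 0 between the factors, with 7, 6 and 5 at an unadjusted p under 0.05 (against 14.4%, 11.9% and 6.85% of all probes) and medians of -0.05, -0.09 and 0.00. The 95% interval of the difference lay within 1 log2 unit either side of 0 for 15, 12 and 13 of the 46 probes, so for the rest a change of 2-fold is not bounded by these arrays. For all members the median half-width of that interval was 0.762, 0.854 and 0.827.

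Slc2a1, the glucose carrier GLUT1, which rat islets use beside the excluded Slc2a2, had -1.84, -1.20, -1.96, -1.75 and -1.86 under Nkx6.1, -1.83, -1.86 and -1.75 under Pdx1 and -2.04, -1.66, -1.39, -1.88 and -1.98 under bGAL. The groups overlapped, and its differences from bGAL were 0.07 (95% interval -0.36 to 0.50) under Nkx6.1 and -0.02 (-0.53 to 0.48) under Pdx1. These intervals exclude a change of 2-fold in either direction. The same held for Slc35b1, the carrier that brings ATP into the endoplasmic reticulum (0.05, -0.30 to 0.41, and -0.07, -0.48 to 0.33), Slc1a5, a glutamine importer (0.15, -0.28 to 0.58, and -0.25, -0.75 to 0.25), and Slc25a20, the carnitine-acylcarnitine carrier (-0.11, -0.56 to 0.35, and -0.39, -0.92 to 0.14). The zinc importer Slc39a14 (0.19, -0.32 to 0.69, and -0.06, -0.65 to 0.52) was bounded as well.

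Intervals were wide for granule amine and zinc carriers. Slc18a2, the amine transporter VMAT2 of beta-cell granules, differed by 0.57 under Nkx6.1 (95% interval -0.56 to 1.70) and 0.19 under Pdx1 (-1.11 to 1.50). The zinc exporters Slc30a5 (first probe) and Slc30a7 differed by -0.98 and -0.09 under Nkx6.1 and by -0.45 and 0.37 under Pdx1. Nkx6.1 2 was the lowest Nkx6.1 array for both, at -2.25 and -2.88. The same array was lowest for 2 iron carriers: Slc11a2, the importer of ferrous iron, read 1.36, -2.39, 0.88, 0.74 and 0.46 on Nkx6.1 1 to 5, against 0.78 to 1.43 under bGAL, and the iron exporter Slc40a1 read 0.53, -0.98, 0.33, 0.18 and 0.37, against -0.12 to 1.27. For mitoferrin Slc25a37 it was the highest of 4 (0.82). The nucleoside carrier Slc29a1 was high on that array (3.83, against 0.41 to 0.74 on the other 4). Slc16a3, a lactate exporter of glycolytic cells that healthy beta cells hold at low levels, stood at -1.41 to 0.44 under Nkx6.1, -1.19 to -0.08 under Pdx1 and -1.62 to -0.94 under bGAL, and differed from bGAL by 0.59 and 0.75 without passing.

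**Figure D5:**
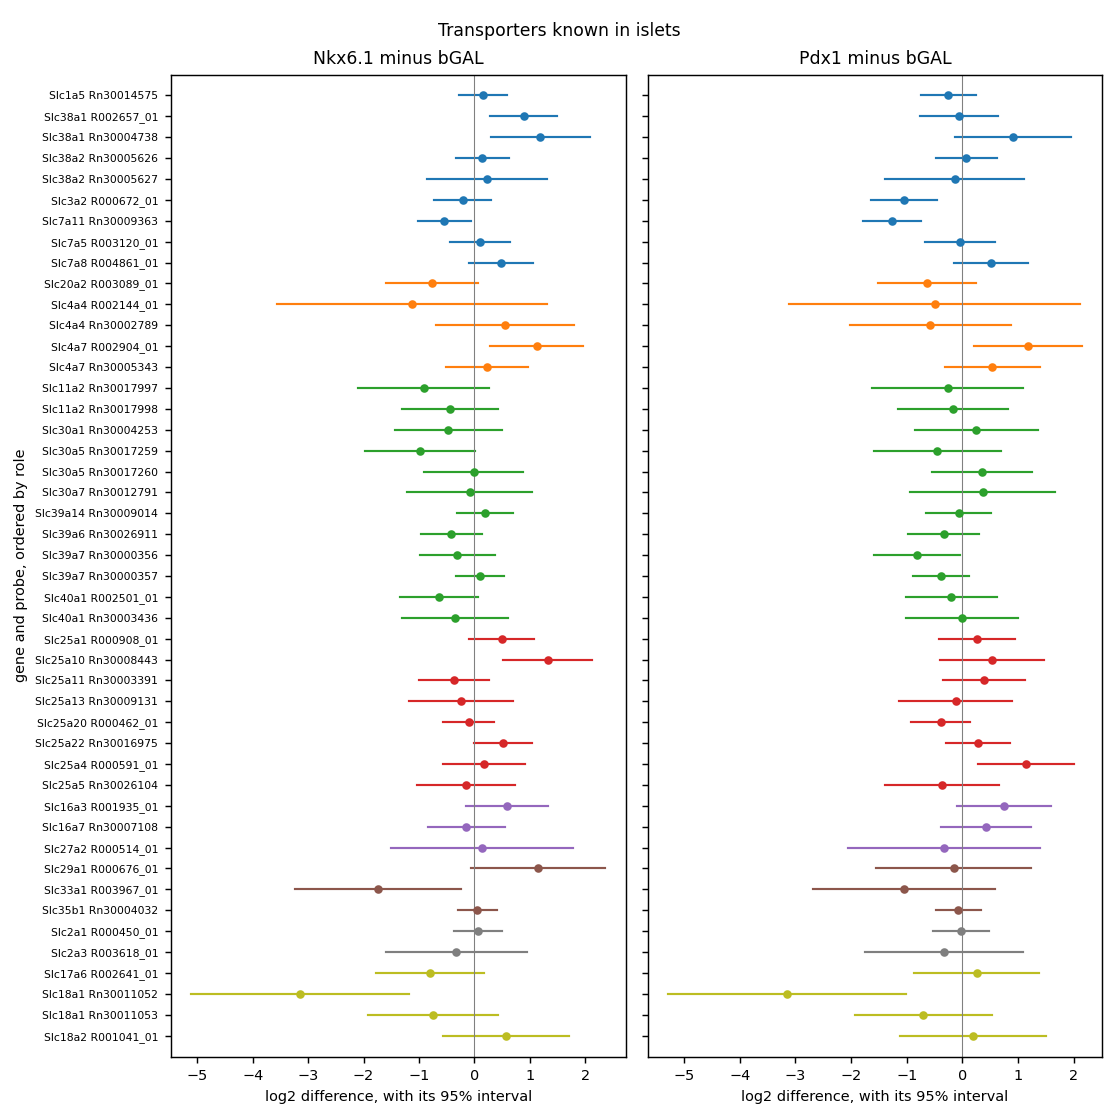
Log2 difference and its 95% interval (x axis) for the 46 probes of transporters known in islets (y axis, gene and probe, coloured by role), Nkx6.1 minus bGAL on the left and Pdx1 minus bGAL on the right. Slc7a11 under Pdx1 is the probe that passed the limma test, and the widest intervals belong to Slc4a4 and Slc18a1.

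For 46 member genes more than 1 probe was tested, 95 probes in all. The probes of a gene had differences of the same sign for 30 genes under Nkx6.1, 30 under Pdx1 and 26 between the factors. Their mean log2 ratios under bGAL differed by a median of 0.690, by under 1 for 30 genes and by over 2 for 7, which were Slc66a1, Slc7a4, Slc18a1, Slc6a2, Slc66a2, Slc20a1 and Slc4a7. The VMAT1 gene Slc18a1 averaged 5.02 and 1.33 on its 2 probes under bGAL, the second with values on 2 bGAL arrays. Slc38a2, a glutamine importer, averaged -1.54 and -1.51. A level or difference of 1 probe therefore does not stand for all transcripts of its gene.

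Transporter genes without an Slc symbol, fixed as a list of 41 (organic anion carriers Slco, uncoupling proteins Ucp, the mitochondrial pyruvate carrier Mpc, sodium pump subunits and others), had 29 genes on the array and 20 tested, with 21 probes. Of these 0 passed in any comparison, and the medians were 0.05 under Nkx6.1, -0.07 under Pdx1 and 0.10 between the factors, close to those of the solute carriers.

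The 84 solute carrier probes that fell short of 2 values in every group were all short under bGAL, and 78 of them under bGAL alone. They leave 54 genes with no member probe, among them Slc12a2, the sodium-potassium-chloride importer. Ion and pH carriers lost most, with 39 of 65 probes kept, and mitochondrial carriers least, with 32 of 36. Most had 1 bGAL value, and 4 of the 5 bGAL arrays are those with many empty probes. No difference was tested for these probes.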

How the data were processed

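The authors' deposited values were log2 ratios of islet (Cy5) over reference RNA (Cy3) per probe and array. Log base 2 was read from the range of the values. Per the labels' protocols, RNA was amplified in 2 rounds and hybridized to spotted arrays. The sources used here give neither background correction, normalization nor the rule for empty values, and the number of arrays limits precision. The table held 26984 probes. After leaving out 22 control spots, 15807 probes carried 1 symbol, 0 several and 11155 none. Of these symbols 12034 were current, 3713 were updated and 60 unmatched in RefSeq (GRCr8), and 21 member probes carry an updated symbol. Promoter windows are RefSeq's, and 167 member genes had one.

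Differences came from limma 3.58.1 in R 4.3.3: 1 model with 3 groups over 13 arrays, probes with 2 or more values per group, no variance trend, two-sided, Benjamini-Hochberg adjustment over 17965 probes, threshold 0.05. The code was tested on simulated data. The array set (30% of probes empty) was defined from the data. Named probes are those past the threshold, the 8 smallest p in each direction against bGAL and 5 between factors, the 10 highest and lowest under bGAL, listed islet transporters, and genes whose probes disagree. Members, lists and rules were chosen with earlier results of these data known. Roles follow family numbers, so that a member with another substrate, such as Slc5a5, stays with its family.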

Additional observations from a re-analysis of the deposited data

Results flagged for a closer look

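Among 155 sets of array values (83 named probes by group, with 4 or 5 arrays), 24 held an array far from the rest by Dixon's criterion, where chance gives about 1 in 20. Nkx6.1 replicate 2 was that array in 19 of them.

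It was the lowest Nkx6.1 array for Slc11a2 (-2.39 and -1.62 on its probes, others 0.46 to 1.36 and 0.51 to 0.87), Slc30a5 (-2.25, others -0.30 to 0.29), Slc30a7 (-2.88, others 0.10 to 0.42) and Slc40a1 (-0.98, others 0.18 to 0.53). It was also lowest for the mitochondrial carriers Slc25a5 (-0.99, others 1.14 to 1.53) and Slc25a11, the oxoglutarate carrier (-1.46, others -0.13 to 0.21), for the acetyl-CoA carrier Slc33a1 (-2.76, others -0.21 to 0.07), for Slc23a4 (-0.40, others 0.46 to 0.79) and for Slc46a3 (-2.21, others -0.27 to -0.02). For the bicarbonate cotransporter Slc4a4 it was lowest on 1 probe (-0.07, others 2.41 to 2.87) and highest on the other (4.76, others 1.54 to 1.77).

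It was the highest Nkx6.1 array for Slc66a1 (7.01, others 3.98 to 4.49), Slc37a4 (4.40, others 3.16 to 3.33), Slc29a1 (3.83, others 0.41 to 0.74), Slc25a10 (2.58, others 0.53 to 1.11), Slc39a4 (1.07, others -1.71 to -1.51), Slc4a7 (0.28, others -1.40 to -0.96) and Slc2a1 (-1.20, others -1.96 to -1.75).

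The other 5 were on 4 arrays. Nkx6.1 1 was highest for Slc24a2 (6.43, others 1.97 to 2.56) and Slc20a1 (-3.68, others -4.33 to -4.14), and Nkx6.1 4 for Slc16a13 (-0.20, others -0.62 to -0.51). bGAL 1 was highest for Slc25a20 (1.85, others 1.56 to 1.61) and bGAL 5 for Slc37a4 (3.76, others 3.23 to 3.38).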

How the results depend on the processing

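Under Nkx6.1 against bGAL, 1 member passed, and 0 under quantile normalization or within either array set. Slc6a2 and Slc7a11 lack values on some arrays, so neither was tested among probes on all 13 arrays, where 0 members passed in each comparison. With each array left out in turn the count ran from 1 to 11. It was 11 of 223 members without bGAL 4, where 595 of 14638 probes passed. Without Nkx6.1 2 it was 4 of 264, where 233 of 17963 probes passed. With bGAL 4 left out, every control is a many-empty array, and of the other arrays only Nkx6.1 1 is. Under Pdx1 against bGAL 1 passed, 2 under quantile normalization, 3 with arrays scaled to one spread, and 0 with values near 0 empty, a variance trend, array sets blocked, or the few-empty arrays alone. Leaving out arrays gave 0 to 7. Without bGAL 4 there were 7 of 223 members, against 432 of 14638 probes. Without Nkx6.1 2 there were 3 of 264, against 321 of 17963. Leaving out Nkx6.1 1 gave 1, and leaving out any of the other 10 arrays gave 0, bGAL 1, 2, 3 and 5 among them. Between the factors 0 passed, 2 under quantile normalization, scaling or without Nkx6.1 2 (0 to 2 over arrays left out).

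The member median of 0.01 under Nkx6.1 was 0.18 within the many-empty arrays. That of -0.09 under Pdx1 was 0.01 under quantile normalization, 0.05 with array sets blocked and 0.02 within the few-empty arrays. Over arrays left out the medians ran -0.02 to 0.04, -0.11 to -0.04 and 0.05 to 0.11. An alternative chosen after seeing the data, array sets blocked without Nkx6.1 2, gave 2, 1 and 2 members in the 3 comparisons, a median of 0.03 under Pdx1, and 0.16 for Slc24a2 under Nkx6.1. None of the other 41 differences named for a small p turned its sign under any alternative that gave it a value. Causes were not tested. Of all probes 115, 98 and 39 passed in the 3 comparisons, and 595, 432 and 31 without bGAL 4, 233, 321 and 81 without Nkx6.1 2, 46, 80 and 96 under quantile normalization, 116, 118 and 94 with scaling, 66, 57 and 36 with a variance trend, and 13, 21 and 44 with array sets blocked.

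The labels state no pairing of samples by replicate number. Correlations of same-numbered arrays' deviations from their group means ran from -0.24 to 0.47. Differently numbered arrays were not set beside them, so these values do not decide whether samples were paired. With the replicate block 1 member passed under Nkx6.1, 0 under Pdx1 and 0 between the factors, and 21, 22 and 19 of all probes did. Within the many-empty arrays Pdx1 has no array, so that setting gave no value for it.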
